A study of Mus musculus with 6 samples.

Results

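The genes described here are those that the deposited peak annotation lists under glutamatergic synapse, renin secretion or calcium signalling, 3 overlapping pathways of receptors, G proteins, ion channels and the enzymes they control. Of 10708 genes with a peak of open chromatin in mouse liver, 190 were listed under at least 1 of them. They held 498 of the 22412 peaks. Calcium signalling listed 132 of the genes with 371 peaks, glutamatergic synapse 71 genes with 205 peaks, and renin secretion 40 genes with 114 peaks. All 3 pathways listed the same 15 genes, 2 of the pathways listed 23 further genes, and 152 genes stood in 1 pathway. The pathways themselves were chosen by measured values: they had been selected on the high log2 differences of their genes between Dyrk1b and control livers in an earlier analysis of the same libraries. Every difference between these groups below is therefore a description with no test, and how these genes compare with all peaks supports nothing by itself.

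In this signalling chain a hormone or transmitter binds a receptor at the cell surface, and a G protein of the Gq class passes the signal to phospholipase C. Phospholipase C makes inositol trisphosphate, which opens calcium release channels in the endoplasmic reticulum, and the calcium acts through calmodulin on kinases, on the phosphatase calcineurin and on some phosphodiesterases. G proteins of the Gs class act through adenylyl cyclase, cAMP and protein kinase A instead. In hepatocytes, vasopressin, adrenaline, ATP and glucagon use these chains to drive glycogen breakdown and glucose output, and phosphorylase kinase reads both calcium and cAMP. The pathway names come from other tissues, since glutamatergic synapses belong to neurons and renin is secreted by juxtaglomerular cells of the kidney.

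The study measured chromatin accessibility by ATAC-seq, where a transposase fragments the open DNA of nuclei and attaches sequencing adapters to it. It compared 3 libraries from livers given an adenovirus for Dyrk1b, a dual-specificity kinase, with 3 libraries from control livers given an adenovirus for the fluorescent protein EGFP. All 6 libraries thus came from virus-treated mouse liver. The labels state no strain, age, viral dose, interval after infection or promoter of the transgene. They do not say either that the 3 libraries of a group came from separate animals, so any spread between them may be in part technical.

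The labels were checked on the Dyrk1b gene first. Its exon 9 peak held 27, 30 and 53 reads in Dyrk1b libraries 1, 2 and 3, against 10, 1 and 3 reads in control libraries 1, 2 and 3 (36.5 ± 3.86 CPM against 5.66 ± 5.44 CPM, SD, n = 3 each; log2 difference 2.64 ± 0.50 SE, edgeR adjusted p = 0.00981). CPM here (counts per M) is the read count of a peak scaled to the reads in all peaks of its library, with TMM normalisation. The only other Dyrk1b peak, in exon 11, was also higher (log2 difference 1.61 ± 0.42 SE, edgeR adjusted p = 0.107). As the virus carried Dyrk1b, reads from viral DNA and from open chromatin of the gene cannot be told apart at these exons. Reads in peaks came to 768418, 891204 and 1267934 in Dyrk1b libraries, against 855787, 840463 and 762633 in control libraries, and the median peak of the pathway genes held 24, 27 and 41 reads against 23, 24 and 21. Of 9 hepatocyte marker genes 6 had peaks, while Ttr, Serpina1a and Cps1 had none, and their 8 peaks summed to 358, 379 and 359 CPM in Dyrk1b libraries against 503, 318 and 465 CPM in control libraries. Of 41 markers of other cell types 15 had peaks. In bulk liver, fewer cells of a type and less signal per cell cannot be told apart.

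The pathway genes took a slightly higher share of the reads in peaks in every Dyrk1b library than in any control library. Their share was 1.80%, 1.79% and 1.87% in Dyrk1b libraries 1, 2 and 3, against 1.73%, 1.72% and 1.70% in control libraries 1, 2 and 3. After a filter on low counts, 486 peaks of 183 genes were compared, and 301 of them had a log2 difference above 0, where 50.5% of all peaks did. The median log2 difference was 0.17 at the pathway genes, against 0.00 over all 22051 peaks compared. The 12 peaks that the filter removed held 1 to 26 reads per library, and the genes left without a compared peak are not described further.

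No single peak of a pathway gene was called. In the quasi-likelihood fit of edgeR to the whole table, 7 peaks passed an adjusted p under 0.05, which is 0.0317% of those compared (0.00907% higher and 0.0227% lower), and 0 of the 486 did. Limma-trend called 0 of them, and DESeq2, which gave 415 of them no adjusted p, also 0. At an unadjusted p under 0.05 the edgeR count was 75, with 44 higher and 31 lower, where the background was 14.2% of all peaks, 6.44% higher and 7.72% lower. The 3 Dyrk1b libraries lay wholly above the 3 control libraries at 67 of the 486 peaks (9.53% of all peaks) and wholly below them at 35 (9.97% of all peaks). Nothing is read from these shares, because the same comparison chose the pathways.

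Promoter peaks stood farther above their class than intron peaks did. A promoter peak is one that the authors class as promoter or that lies at most 3 kb from the start of its gene. The median log2 difference over 107 promoter peaks was 0.16, against -0.07 over all promoter peaks, and 71 of the 107 were above 0. Over 352 intron peaks it was 0.16, against 0.08 over all intron peaks, and 213 were above 0. The intron median was 0.10 without Dyrk1b library 1, 0.11 without Dyrk1b library 3 and 0.01 with 1 peak per gene, and the promoter median was 0.07 over the 38 peaks that the authors themselves class as promoter. The medians over all promoter and all intron peaks given here were not taken under these alternatives, so they are not matched to them. Promoter peaks of glutamatergic synapse genes had the highest pathway median, at 0.35 over 41 peaks, beside 0.23 over 26 for renin secretion and 0.13 over 77 for calcium signalling. In introns the medians were 0.11, 0.16 and 0.18 for the same pathways.

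**Figure D1:**
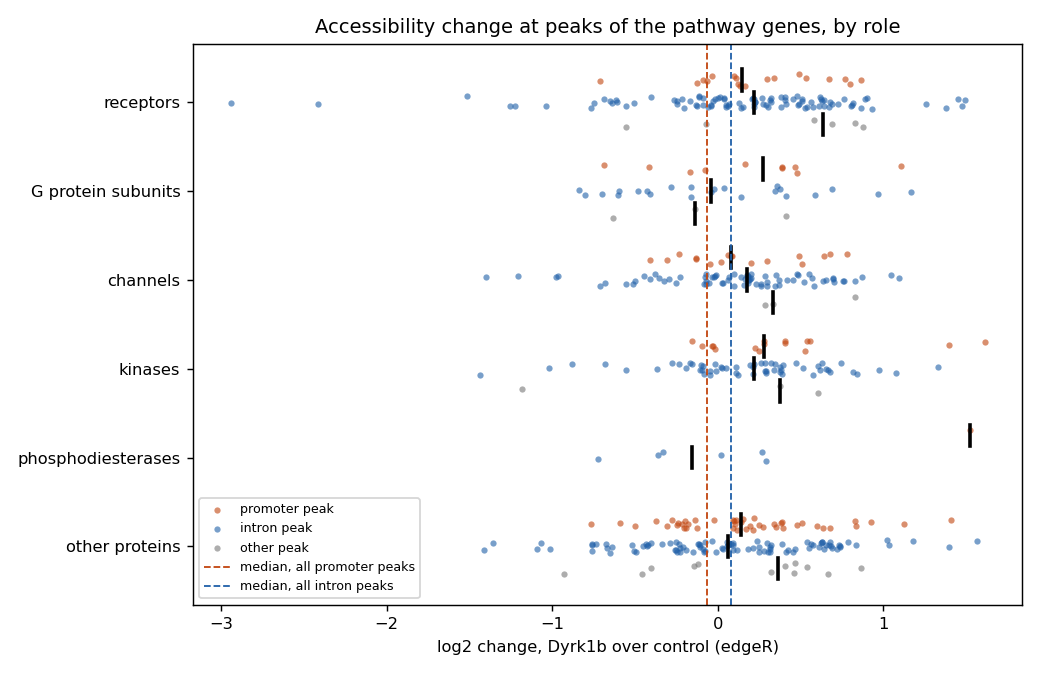
Log2 difference (Dyrk1b over control, horizontal axis) of each compared peak of the pathway genes, with promoter, intron and other peaks in separate lanes for each role on the vertical axis. Black bars are medians and dashed lines are the medians of all promoter peaks (-0.07) and all intron peaks (0.08); values run from -2.94 to 1.61 and every role has peaks on either side of 0.

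Values also varied with the level of a peak. At peaks below 35.9 CPM, the median level of all peaks, the median log2 difference of promoter peaks was 0.36 at pathway genes (50 peaks), against 0.10 over all such promoter peaks. Above that level it was 0.10 (57 peaks), against -0.11. Intron peaks of pathway genes and of all genes were nearly alike, at 0.24 against 0.22 below that level and -0.02 against -0.09 above it. Low peaks had higher values in both sets, and promoter peaks of pathway genes lay above their class at either level. Nothing is concluded from this, because the same comparison chose the pathways and the split was made after the data were seen.

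**Figure D2:**
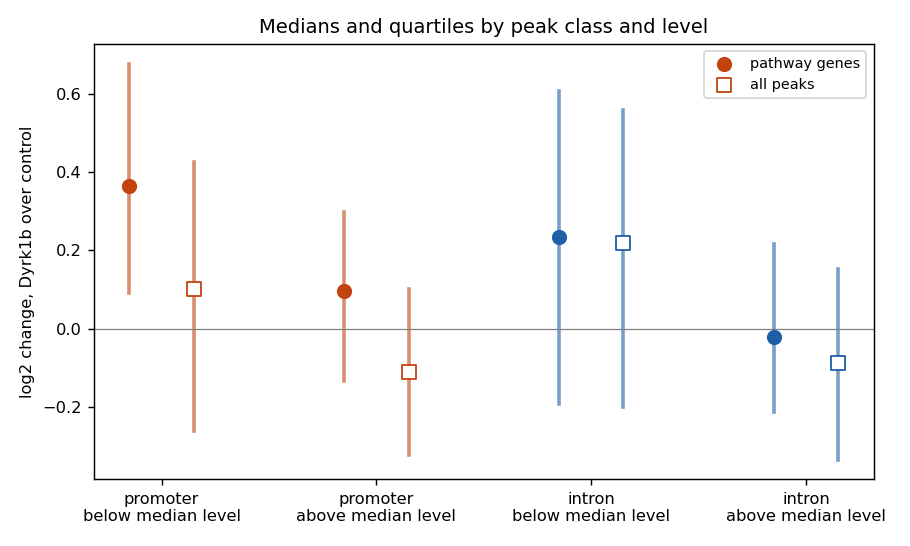
Median log2 difference (Dyrk1b over control, vertical axis) with bars from the lower to the upper quartile, for pathway genes (filled circles) and all peaks (open squares), by class and by level split at 35.9 CPM. The pathway genes lie above all peaks in the promoter classes (0.36 against 0.10, and 0.10 against -0.11), and near them in the intron classes.

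The pathway genes as a set also differed from all genes with a peak in gene architecture, which the rule did not name. Architecture was not independent of the choice by log2 difference. The median difference was 0.08 over all intron peaks and -0.07 over all promoter peaks. Pathway genes were long, with a median length of 58.1 kb against 28.0 kb over all genes with a peak, and had 2.62 peaks per gene against 1.85. Even so, 51.6% of the pathway genes had a single peak, against 58.7% of all genes. Introns held 72.7% of their peaks against 49.0% of all peaks, and promoters 21.7% against 42.9%. Their intron peaks also lay far from the start of the gene, at a median of 98.4 kb against 34.8 kb. Fgfr2 alone held 38 peaks, of which 34 lay 236 kb to 2691 kb from the start of 1 long transcript model. These architecture values were not computed without Fgfr2. Only 98 of the 190 genes (51.6%) had a promoter peak, where 70.2% of all genes with peaks did.

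The 15 genes that all 3 pathways share are the core of the chain: Gnaq and Gnas, the alpha subunits of Gq and Gs, the phospholipases Plcb1 and Plcb3, the inositol trisphosphate receptors Itpr1, Itpr2 and Itpr3, the voltage-gated channels Cacna1c and Cacna1d, the calcineurin subunits Ppp3ca, Ppp3cb, Ppp3cc and Ppp3r1, and the protein kinase A catalytic subunits Prkaca and Prkacb. Over their 67 peaks the median log2 difference was 0.19, and 45 were above 0. The groups lay apart at 5 higher and 2 lower peaks. These are 7.46% and 2.99% of the 67, against 9.53% and 9.97% of all peaks. Over the 12 promoter peaks of these genes the median was 0.33, with 10 above 0. The accessible promoters of Gnaq and Itpr2, with positive log2 differences, and of Stim1, with a slightly negative one, are shown here because these were among the strongest promoter peaks of the set, and that of Itpr3 because its promoter held peaks that behaved differently. Each sequence is from RefSeq, build GRCm38.p6, covers 250 bases before to 50 after the start of the gene, and has GC boxes (GGGCGG or CCGCCC) in capitals. The windows were matched by gene symbol, and no sequence was read at the peaks themselves. By its deposited distance, the Itpr3 peak farther from the start lies outside the Itpr3 window. They are Gnaq at chr19:16132434-16132733 on the plus strand, Itpr2 at chr6:146502174-146502473 on the minus strand, Itpr3 at chr17:27057054-27057353 on the plus strand and Stim1 at chr7:102267569-102267868 on the plus strand.
Gnaq: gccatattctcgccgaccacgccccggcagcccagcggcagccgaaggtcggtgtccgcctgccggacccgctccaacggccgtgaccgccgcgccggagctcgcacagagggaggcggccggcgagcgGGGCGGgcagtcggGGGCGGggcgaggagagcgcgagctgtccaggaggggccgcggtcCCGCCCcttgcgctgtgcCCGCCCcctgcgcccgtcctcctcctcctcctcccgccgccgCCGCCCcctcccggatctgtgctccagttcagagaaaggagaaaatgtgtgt
Itpr2: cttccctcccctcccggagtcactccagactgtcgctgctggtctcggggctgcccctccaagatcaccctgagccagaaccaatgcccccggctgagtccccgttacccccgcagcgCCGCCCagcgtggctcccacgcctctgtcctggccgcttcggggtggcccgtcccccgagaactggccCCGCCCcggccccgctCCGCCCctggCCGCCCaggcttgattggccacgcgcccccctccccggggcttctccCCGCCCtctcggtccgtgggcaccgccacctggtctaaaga
Itpr3: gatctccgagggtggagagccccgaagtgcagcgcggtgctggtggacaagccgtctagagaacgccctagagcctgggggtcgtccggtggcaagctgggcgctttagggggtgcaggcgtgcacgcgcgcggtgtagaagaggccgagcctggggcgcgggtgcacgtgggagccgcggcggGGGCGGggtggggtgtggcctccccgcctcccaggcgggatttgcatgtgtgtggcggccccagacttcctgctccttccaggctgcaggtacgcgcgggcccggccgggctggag
Stim1: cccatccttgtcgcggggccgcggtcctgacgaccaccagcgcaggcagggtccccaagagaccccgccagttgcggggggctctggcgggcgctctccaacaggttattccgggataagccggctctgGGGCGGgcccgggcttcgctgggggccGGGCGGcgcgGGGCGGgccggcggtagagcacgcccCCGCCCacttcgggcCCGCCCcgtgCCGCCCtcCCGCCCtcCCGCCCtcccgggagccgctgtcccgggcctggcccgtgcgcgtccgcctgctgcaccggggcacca
By the capitals, Gnaq and Itpr2 hold 5 GC boxes each, Stim1 holds 8 and Itpr3 holds 1. G and C make up 75% of the window of Gnaq, 73.3% of that of Itpr2, 72.3% of that of Itpr3 and 78.7% of that of Stim1.

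GC boxes are common in accessible promoters whatever the pathway. Of the 190 pathway genes 141 matched the RefSeq promoter table by symbol, and 65.2% of these held GGGCGG on either strand, against 38.2% of all 27025 genes of the table. Among genes with a promoter peak the shares were 76% of 75 matched pathway genes and 70.7% of 6023 genes. The cAMP response element TGACGTCA was in 0 of the 141 windows, against 2.03% of all genes and 3.05% of genes with a promoter peak. Its shorter core TGACG, which also lies within the full element, was in 27.7% against 23.0% of all genes, but among genes with a promoter peak it was in 29.3% of pathway genes against 34.4%. TATAAA was in 9.22% against 15.7% of all genes, and in 4% against 8.52% of genes with a promoter peak. These matches describe the letters in these windows and say nothing of binding.

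At the Itpr2 promoter, which belongs to the main inositol trisphosphate receptor of hepatocytes, the groups did not overlap. Peak positions are given as deposited, on a build that the table does not name and that is not the GRCm38 of the promoter sequences. Its peak over the 5′ untranslated region (chr6:146403119-146403959) had 126, 107 and 93.7 CPM in Dyrk1b libraries against 80.9, 81.4 and 67.2 CPM in control libraries. The lowest Dyrk1b library lay above the highest control library, and the log2 difference was 0.49 ± 0.22. The other 10 compared peaks of Itpr2, over a gene annotated with 55 introns, had overlapping groups and ran from -0.50 to 0.76, with 7 above 0 and 3 below.

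The Itpr3 promoter had 2 peaks, and the one farther from the start of the gene was higher in all 3 Dyrk1b libraries. That peak (chr17:27275177-27275500, 0.94 kb before the start) had 31.8, 30.9 and 29.2 CPM in Dyrk1b libraries against 17.6, 18.2 and 21.5 CPM in control libraries, a log2 difference of 0.68 ± 0.38. The peak at the start itself had 39.8, 26.5 and 17.7 CPM in Dyrk1b libraries against 28.1, 31.6 and 20.2 CPM in control libraries and 0.02 ± 0.37, with overlapping groups. Itpr1, the third receptor of the family, had 14 peaks split evenly, 7 above 0 and 7 below, and its promoter stood at -0.24 ± 0.24. Of the intron peaks of Itpr1, the one in intron 44 at 229 kb from the start lay apart, with 27.9, 35.3 and 31.5 CPM in Dyrk1b libraries against 17.6, 19.4 and 16.1 CPM in control libraries and 0.83 ± 0.38.

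Gnaq, which couples hormone receptors to phospholipase C, was 1 of 3 genes with at least 4 peaks whose compared peaks all had positive values. Its promoter peak (chr19:16109242-16110299) had 125, 139 and 123 CPM in Dyrk1b libraries against 95.0, 128 and 71.3 CPM in control libraries, and control library 2 fell within the Dyrk1b range, so the groups overlapped. The log2 difference was 0.39 ± 0.21, and the 4 intron peaks of Gnaq gave 0.35 to 0.97, again with overlap at each. Gnas, the Gs alpha subunit behind glucagon signalling, had 0.41 ± 0.29 at a 5′ untranslated exon and -0.48 ± 0.34 in intron 7, or -0.047 there without control library 2.

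The calcineurin and protein kinase A genes were mostly above 0 without clear separation. Ppp3cc, a catalytic subunit of calcineurin, had 79.6, 68.4 and 52.2 CPM in Dyrk1b libraries against 23.4, 53.4 and 33.6 CPM in control libraries at its promoter, and control library 2 lay just above Dyrk1b library 3. The log2 difference was 0.84 ± 0.28, against 0.38 ± 0.23 at the promoter of Ppp3cb, 0.19 ± 0.22 at that of Ppp3ca and -0.20 ± 0.23 at that of the regulatory subunit Ppp3r1. Prkacb, a catalytic subunit of protein kinase A, had 65.0, 66.2 and 58.4 CPM in Dyrk1b libraries against 34, 63.2 and 32.3 CPM in control libraries at its promoter, a log2 difference of 0.54 ± 0.27. Control libraries 1 and 3 were low there and control library 2 was close to the Dyrk1b level. At the Prkaca promoter the difference was 0.28 ± 0.29.

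Receptors made up 39 of the compared genes with 120 peaks. Their median log2 difference was 0.22, 80 peaks were above 0, and the groups lay apart at 19 higher and 9 lower peaks (9.53% and 9.97% of all peaks). The median was 0.16 over 33 peaks of G protein-coupled receptors, 0.22 over 62 peaks of receptor tyrosine kinases, 0.51 over 9 peaks of P2X receptors, which are ATP-gated channels, and 0.15 over 16 peaks of ionotropic glutamate receptors. The strongest promoter peak of a receptor belonged to P2rx4, an ATP-gated calcium-permeable channel, and was level between groups: it had 114, 106 and 103 CPM in Dyrk1b libraries against 104, 113 and 113 CPM in control libraries and -0.04 ± 0.21.

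Adra1a, the alpha-1A adrenoceptor through which adrenaline raises calcium, had 5 peaks, all with positive values. The one over its 3′ untranslated region (chr14:66969902-66970384) had 31.8, 32 and 26.1 CPM in Dyrk1b libraries against 17.6, 13.4 and 17.5 CPM in control libraries. The groups lay well apart there, with a log2 difference of 0.88 ± 0.40. Its promoter peak was at 0.16 ± 0.48 and its intron peaks at 0.04 to 0.41, all with overlap.

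Glutamate receptor peaks had values on either side of 0. Grm7, a metabotropic glutamate receptor, had an intron 5 peak with 43.8, 23.2 and 17.7 CPM in Dyrk1b libraries against 7.03, 10.9 and 12.1 CPM in control libraries and a log2 difference of 1.45 ± 0.50, while its peak in intron 9 stood at -0.55 ± 0.27, or -0.17 without control library 1. Grik4, a kainate receptor subunit, had 38.5, 38.6 and 23.8 CPM in Dyrk1b libraries against 19.9, 19.4 and 22.9 CPM in control libraries at its promoter, where all Dyrk1b libraries were higher (0.67 ± 0.37). In intron 1 of Grik4 a weak peak went the other way, with 3, 5 and 1 reads in Dyrk1b libraries against 13, 14 and 15 reads in control libraries. The lowest value of the set, noted after the values were seen, was at an intron 2 peak of the muscarinic receptor gene Chrm3, with 1, 3 and 2 reads in Dyrk1b libraries against 15, 10 and 15 reads in control libraries. Counts this low give no usable fold.

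Fgfr2, a growth factor receptor tyrosine kinase, alone held 38 of the 486 compared peaks. Of these, 34 were assigned to intron 2 of a transcript model spanning 2961 kb, at 236 kb to 2691 kb from its start, so their link to Fgfr2 rests on that annotation. Over all 38 peaks, 28 were above 0 and 10 below, and values ran from -0.64 to 1.48. The groups lay apart at 8 higher and 1 lower of these peaks (9.53% and 9.97% of all peaks). The strongest of them was lower in Dyrk1b livers: it lay 2604 kb from the start (chr7:130121025-130121910) and had 78.3, 69.5 and 59.1 CPM in Dyrk1b libraries against 104, 125 and 88.7 CPM in control libraries, a log2 difference of -0.64 ± 0.22. Without Fgfr2 the median over the pathway genes was 0.16 overall and 0.12 in introns. Met, the receptor of hepatocyte growth factor, had 5 peaks, all with negative values. At its promoter (chr6:17463679-17464159) it had 22.6, 45.2 and 27.6 CPM in Dyrk1b libraries against 46.9, 47.4 and 63.2 CPM in control libraries, with every Dyrk1b library below every control library (-0.71 ± 0.30).

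G protein subunits had values on either side of 0. Their 36 peaks had a median log2 difference of -0.03, 17 were above 0, and the groups lay apart at 4 higher and 6 lower peaks (9.53% and 9.97% of all peaks). Within the group, promoter peaks had a median of 0.28 (10 peaks) and intron peaks one of -0.04 (23 peaks). The largest log2 difference of the group was in intron 2 of Gna14, a Gq-class alpha subunit (chr19:16515849-16516457), with 49.1, 37.5 and 32.2 CPM in Dyrk1b libraries against 15.2, 23.1 and 13.4 CPM in control libraries. All Dyrk1b libraries exceeded all control libraries there, and the log2 difference was 1.17 ± 0.36.

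The alpha subunit gene Gnai2 and the promoter of the gamma subunit gene Gng12 lay below 0. Gnai2, a Gi alpha subunit that restrains adenylyl cyclase, had 4 peaks, all with negative values, from -0.63 to -0.14. Gng12 had 35.8, 37.5 and 33.8 CPM in Dyrk1b libraries against 45.7, 54.7 and 72.6 CPM in control libraries at its promoter (chr6:66873137-66873669), where the groups did not overlap, and a log2 difference of -0.69 ± 0.28. Its intron 3 nonetheless held a peak that was higher in every Dyrk1b library, with 33.2, 46.3 and 39.9 CPM in Dyrk1b libraries against 19.9, 31.6 and 28.2 CPM in control libraries and 0.59 ± 0.33, and one that was lower in every Dyrk1b library, with 30.5, 19.8 and 18.4 CPM in Dyrk1b libraries against 35.2, 31.6 and 43.0 CPM in control libraries and -0.70 ± 0.35.

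Channel genes had 94 compared peaks with a median log2 difference of 0.18. Of these 61 were above 0, and the groups lay apart at 13 higher and 3 lower (9.53% and 9.97% of all peaks). The 26 peaks of voltage-gated calcium channels, which open on depolarisation and are best known from muscle and neurons, had a median of 0.22 with 20 above 0. The 29 peaks of calcium release channels had a median of 0.19 with 19 above 0, and lay apart at 4 higher and 0 lower peaks. Store-operated entry genes, which refill the stores, had a median of -0.01 over 11 peaks, and mitochondrial channels one of 0.02 over 10.

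Voltage-gated channel genes held peaks of either direction. Cacna1s, the skeletal muscle channel, had 59.7, 36.4 and 39.2 CPM in Dyrk1b libraries against 16.4, 21.9 and 24.2 CPM in control libraries in intron 2 (chr1:135986339-135986777), with no overlap and a log2 difference of 1.10 ± 0.34. Cacna1b, the N-type neuronal channel, had 37.2, 22.1 and 26.9 CPM in Dyrk1b libraries against 65.7, 59.5 and 41.7 CPM in control libraries in intron 3 (chr2:24631747-24632408), also with no overlap, but with a log2 difference of -0.98 ± 0.30. Of the 7 peaks of Cacna1d 6 were above 0, and of the 5 of Cacna1c 2 were, with overlap at each. Stim1, the sensor of calcium in the endoplasmic reticulum, had the strongest promoter peak of the channel group (chr7:101916250-101917531), with 106, 101 and 109.8 CPM in Dyrk1b libraries against 109, 113 and 126 CPM in control libraries and -0.13 ± 0.21. The promoter of Stim1 was thus level between the groups, although 2 of its 4 intron peaks were higher in all 3 Dyrk1b libraries (9.53% of all peaks).

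**Figure D3:**
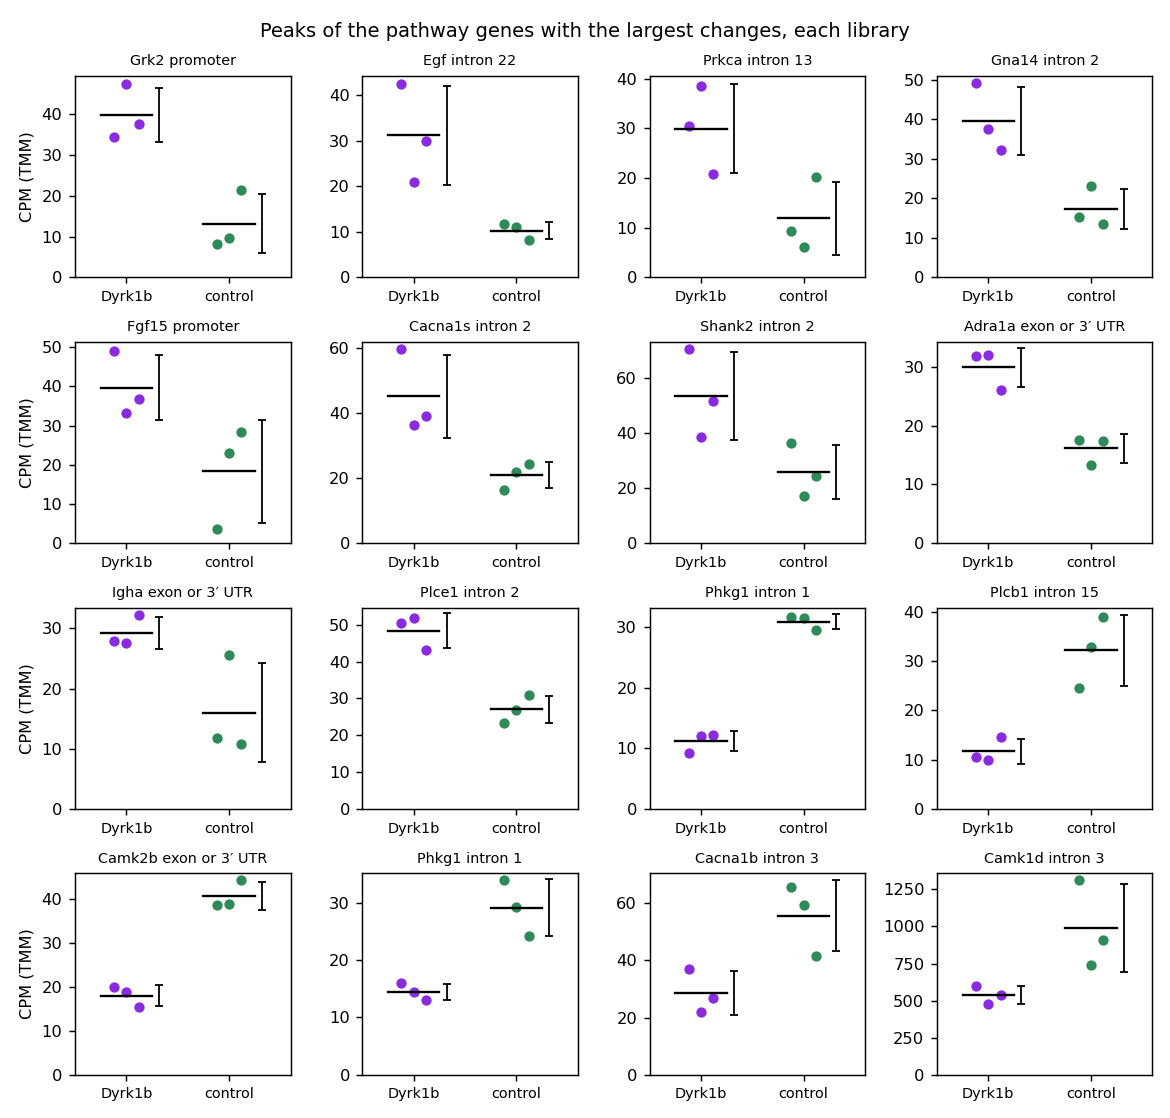
CPM (vertical axes, from 0) in each library of the 10 peaks with the largest positive and the 6 with the largest negative log2 differences among pathway gene peaks of at least 20 CPM whose groups do not overlap, Dyrk1b left and control right. Points are libraries 1, 2 and 3, horizontal lines are means and bars are SD (n = 3); the values of Grk2 reach 47.4 CPM in Dyrk1b libraries, and the 2 panels for Phkg1 are neighbouring peaks of intron 1.

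Kinase genes had a median log2 difference of 0.26 over 77 peaks. Of these 51 were above 0, and the groups lay apart at 12 higher and 5 lower (9.53% and 9.97% of all peaks). The peak with the largest log2 difference of all 486 was the promoter of Grk2, the kinase that phosphorylates active G protein-coupled receptors and so dampens their signal. It lies 135 bases before the start (chr19:4356227-4356543) and had 34.5, 47.4 and 37.6 CPM in Dyrk1b libraries against 8.21, 9.72 and 21.5 CPM in control libraries. The lowest Dyrk1b library stood well above the highest control library, and the log2 difference was 1.61 ± 0.39, or 1.36 to 2.14 when any 1 library was left out. An intron 3 peak of Grk2 had 1.08 ± 0.44 with overlap between Dyrk1b library 3 and control library 3.

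Prkca, the calcium-dependent protein kinase C alpha, had 8 of 9 peaks above 0. Its peak in intron 13 (chr11:107862907-107863345) had 30.5, 38.6 and 20.7 CPM in Dyrk1b libraries against 9.38, 6.07 and 20.2 CPM in control libraries. Dyrk1b library 3 and control library 3 nearly met, and the log2 difference was 1.33 ± 0.46. Ntrk2, a receptor kinase for neurotrophins counted with the receptors, likewise had 8 of its 9 peaks above 0.

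Camk1d, a calmodulin-dependent kinase, also had 8 of 9 peaks above 0, but the ninth was the strongest peak of the whole set and was lower. That intron 3 peak, 335 kb from the start (chr2:5383935-5384294), had 597, 475 and 539 CPM in Dyrk1b libraries against 1316, 741 and 909 CPM in control libraries. Its mean level of 763 CPM ranked 14 among all peaks of the table, against 127 CPM for the next peak of a pathway gene. The log2 difference was -0.88 ± 0.25 with no overlap. Camk2d, the main promoter of the kinase group by level, had 121, 137 and 121 CPM in Dyrk1b libraries against 123, 138 and 124 CPM in control libraries and -0.03 ± 0.20. Camk2b had 19.9, 18.7 and 15.4 CPM in Dyrk1b libraries against 38.7, 38.9 and 44.4 CPM in control libraries at exon 3, where all Dyrk1b libraries lay far below the control libraries (-1.19 ± 0.35).

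Phosphorylase kinase, which turns calcium and cAMP signals into glycogen breakdown, had 7 peaks with a median of -0.09. Phkg1, its catalytic subunit in muscle, had the lowest of them in intron 1 (chr5:129915793-129916090), with 9.29, 12.1 and 12.3 CPM in Dyrk1b libraries against 31.7, 31.6 and 29.6 CPM in control libraries and a log2 difference of -1.43 ± 0.44. A neighbouring peak had 15.9, 14.3 and 13.1 CPM in Dyrk1b libraries against 34, 29.2 and 24.2 CPM in control libraries and -1.02 ± 0.42, and neither had any overlap. Phkb, the beta subunit, went the other way, with 82.3, 49.6 and 70.6 CPM in Dyrk1b libraries against 51.6, 40.1 and 48.4 CPM in control libraries at its promoter and 0.53 ± 0.26, although Dyrk1b library 2 fell within the control range. The promoters of the alpha subunits Phka1 and Phka2 stood at -0.04 ± 0.36 and -0.09 ± 0.28.

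The annotation listed 3 phosphodiesterase genes, which break down cyclic nucleotides, with 7 peaks and a median of 0.02. The only promoter peak among them was that of Pde1c, a calmodulin-activated phosphodiesterase (chr6:56545576-56545834), with 25.2, 18.7 and 12.3 CPM in Dyrk1b libraries against 3.52, 3.64 and 12.1 CPM in control libraries. Its log2 difference was 1.53 ± 0.64, but control library 3 almost reached Dyrk1b library 3, and no control library held more than 9 reads. Pde3a, a cAMP phosphodiesterase, stood at -0.36 ± 0.33 in intron 1, and the 4 intron peaks of Pde1a ran from -0.72 to 0.27.

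The remaining proteins, with 152 peaks and a median of 0.10, comprised phospholipases, cyclases, scaffolds, ligands and transporters. Phospholipases had a median of 0.21 over 30 peaks. Plce1, a phospholipase C that Ras-family proteins activate, had 7 of 10 peaks above 0. In every Dyrk1b library 4 of these were higher (9.53% of all peaks), while 1 other was lower (9.97% of all peaks), at -0.76 ± 0.51. One of the higher peaks lay in intron 2 (chr19:38591234-38591586) with 50.4, 51.8 and 43.0 CPM in Dyrk1b libraries against 23.4, 26.7 and 30.9 CPM in control libraries and 0.83 ± 0.31. Plcb1, the phospholipase that Gq activates, had 0.21 ± 0.24 at its promoter, but its intron 15 peak (chr2:135172201-135172656) had 10.6, 9.92 and 14.6 CPM in Dyrk1b libraries against 24.6, 32.8 and 39.0 CPM in control libraries. There the Dyrk1b libraries were well below the control libraries (-1.41 ± 0.43). Adenylyl cyclases, which make cAMP, had a median of 0.12 over 14 peaks, with 8 above 0. The groups lay apart at 0 of the 14, where they did at 19.5% of all peaks.

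Secreted ligands had 17 peaks with a median of 0.27, of which 11 were above 0 and 6 below. In all Dyrk1b libraries 5 were higher and 0 lower (9.53% and 9.97% of all peaks), while 4 were higher and 2 lower at an unadjusted p under 0.05 (6.44% and 7.72% of all peaks). The lowest, named after the values were seen, was the intron 2 peak of Fgf7, a growth factor of mesenchymal cells, with 13.3, 13.2 and 6.91 CPM in Dyrk1b libraries against 11.7, 38.9 and 33.6 CPM in control libraries and a log2 difference of -1.36 ± 0.49, where control library 1 lay among the Dyrk1b libraries. Egf, epidermal growth factor, had 42.5, 20.9 and 29.9 CPM in Dyrk1b libraries against 11.7, 10.9 and 8.07 CPM in control libraries in intron 22 (chr3:129475419-129475846) and 1.57 ± 0.46. Fgf15, the mouse gut hormone that represses bile acid synthesis in liver, had 49.1, 33.1 and 36.9 CPM in Dyrk1b libraries against 3.52, 23.1 and 28.2 CPM in control libraries at a peak 1.93 kb from its start (chr7:144451977-144452422). The log2 difference of the Fgf15 peak was 1.12 ± 0.39 and it was 0.62 without control library 1, the lowest of the 6, and 1.57 without control library 3. Of postsynaptic scaffolds, which anchor glutamate receptors, Shank2 had 70.3, 38.6 and 51.4 CPM in Dyrk1b libraries against 36.3, 17.0 and 24.2 CPM in control libraries in intron 2 (chr7:143593872-143594443) with 1.03 ± 0.31, and the family's 27 peaks had a median of 0.10. A peak assigned to the immunoglobulin gene Igha (chr12:113218972-113219311), with 27.9, 27.6 and 32.2 CPM in Dyrk1b libraries against 11.7, 25.5 and 10.8 CPM in control libraries and 0.87 ± 0.41, is a member only because the annotation lists it under calcium signalling.

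The genes closest to the pathway names gave mixed values. Renin itself, Ren1, had a single peak in intron 1 (chr1:133281276-133281581), and it was lower in every Dyrk1b library, with 15.9, 18.7 and 33.8 CPM in Dyrk1b libraries against 36.3, 40.1 and 44.4 CPM in control libraries and -0.76 ± 0.34. Its substrate angiotensinogen, Agt, which hepatocytes make, stood at -0.20 ± 0.28 and -0.02 ± 0.26 at its promoter peaks, with overlapping groups. Ace, which makes angiotensin II, had 41.1, 49.6 and 57.6 CPM in Dyrk1b libraries against 41.0, 35.2 and 32.3 CPM in control libraries at exon 12 and was higher in every Dyrk1b library (0.46 ± 0.28). Agtr1a, the angiotensin receptor, stood at -0.21 ± 0.39 in intron 2. The glutaminase Gls2, the liver enzyme that releases glutamate from glutamine, had 0.22 ± 0.22 at its promoter and -0.51 ± 0.25 in intron 7.

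Peaks of the same gene often differed in direction. Of the 183 genes compared, 78 had only positive and 43 only negative values, while 62 had both. Of the 37 genes with at least 4 peaks, 31 had both. Another 3 had only positive values (Adra1a, Cacna1a and Gnaq) and 3 only negative ones (Asph, Gnai2 and Met). For Cacna1a and Asph this covers the 3 compared peaks of 4. Kcnma1, the large-conductance calcium-activated potassium channel, showed the spread within a gene, with 4 peaks above 0 and 3 below at down to -1.40.

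**Figure D4:**
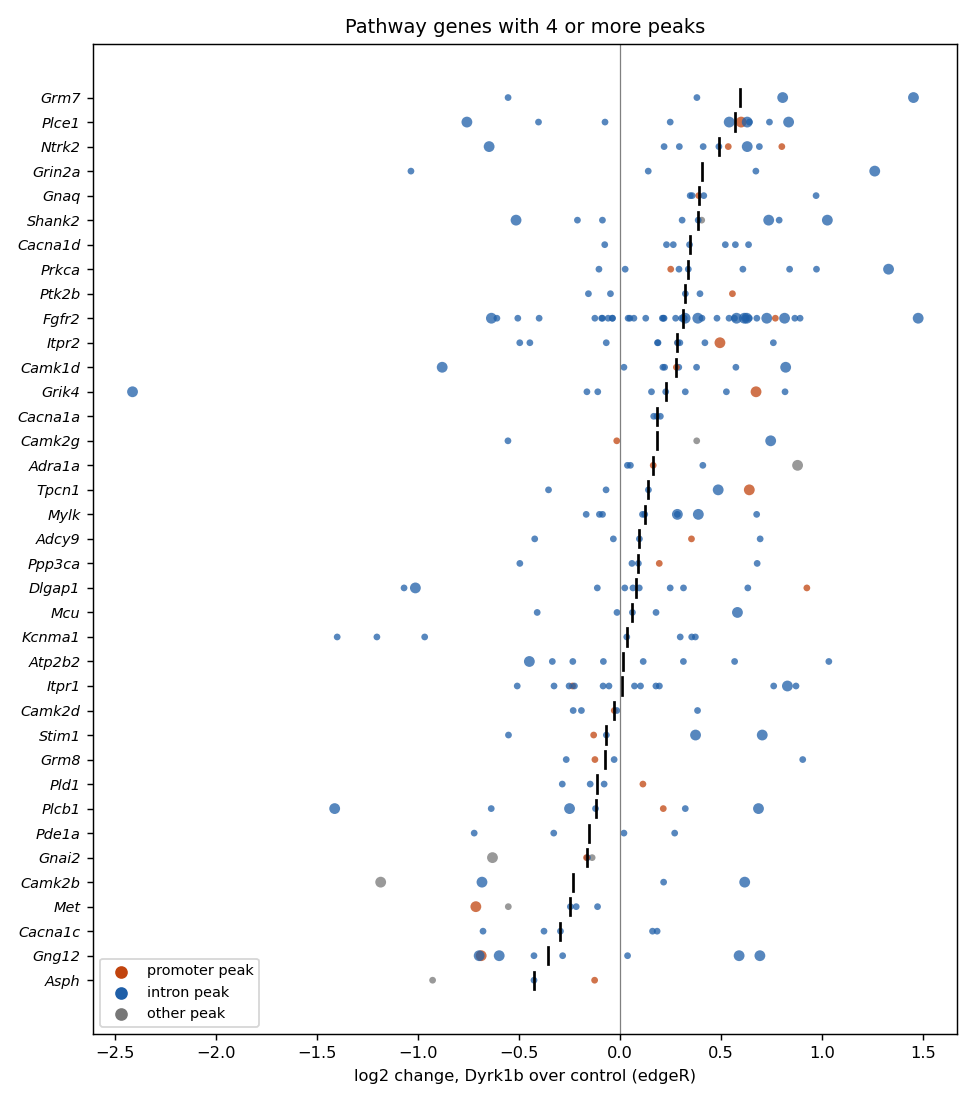
Log2 difference (Dyrk1b over control, horizontal axis) of each compared peak of the 37 pathway genes with at least 4 peaks, 1 gene per row in order of the median (black bar), coloured by class. Large points mark peaks whose groups do not overlap; 31 of the 37 genes have peaks on either side of 0, and Fgfr2 has the most peaks, 38.

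Further lists set these genes in the wider biology of the liver. A list of 47 genes for calcium and cAMP signalling in hepatocytes had 39 with a peak, of which 31 were pathway genes. Over its 137 compared peaks the median was 0.09, 81 were above 0 and 0 were called, and 14 were higher and 6 lower at an unadjusted p under 0.05, where 6.44% of all peaks were higher and 7.72% lower. Gcgr, the glucagon receptor and not among the pathway genes, had 53.7 CPM in Dyrk1b livers against 81.4 CPM in control livers on average, with no overlap and a log2 difference of -0.58. A list of 32 genes for glutamate handling had 23 with a peak, 19 of them pathway genes, and a median of 0.05 over 60 peaks, with 32 above 0, 0 called, and 5 higher and 6 lower at that p.

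Markers of some other cell types were also higher in Dyrk1b libraries, and those of others were lower. The 6 peaks of the neuronal markers Rbfox3, Snap25 and Map2 all had positive values, with a median of 0.73, and summed to 153, 170 and 154 CPM in Dyrk1b libraries against 107, 85.0 and 96.8 CPM in control libraries. Syt1 and Stmn2, the other 2 neuronal markers, had no peak. Medians were also positive for sinusoidal endothelial cells (0.56 over 4 peaks), B cells (0.97 over 2), stellate cells (0.74 at 1) and macrophages (0.16 over 3). The macrophage sums did not follow their median. They were 162, 185 and 175 CPM in Dyrk1b libraries against 206, 164 and 203 CPM in control libraries. Medians were negative for juxtaglomerular cells (-0.40 over 2 peaks), smooth muscle (-0.15 over 2) and T and NK cells (-0.60 at 1). Over the 21 peaks of all cell types other than hepatocytes the median was 0.56 with 15 above 0, and they summed to 641, 729 and 695 CPM in Dyrk1b libraries against 601, 565 and 668 CPM in control libraries. The 8 hepatocyte marker peaks had a median of -0.29 with 7 below 0. No marker peak passed the adjusted threshold, and their part in the values of the pathway genes was not tested.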

How the data were processed

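The authors deposited 1 table of merged peaks for the 6 libraries. Per the file headers it holds read counts per peak and library, RPKM values, a log2 ratio of mean RPKM, a p-value and an FDR per peak, and the gene annotation and pathways of each peak. The submitters' processing notes name Bowtie2, DiffBind, ChIPseeker and mm10; their versions, the peak caller, duplicate removal and any shift of reads for the transposase are not stated there. No deposited count is under 1, so empty peaks may stand at 1. Of 10554 genes compared, 3.37% lay within 2 kb of their GRCm38 position (median shift 133 kb), so positions are printed as deposited.

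Counts were fitted with edgeR 4.0.16 in R 4.3.3 (TMM, filterByExpr, quasi-likelihood, no covariate; 22051 peaks tested, 361 removed), Dyrk1b over control, with Benjamini-Hochberg adjustment over all peaks and a threshold of 0.05. The biological coefficient of variation was 19.9%. The fit was also run on simulated data with large changes placed only at peaks above the median level. That run does not speak to smaller differences or to lower peaks. Levels are TMM CPM, and ± after a log2 difference is its SE. Alternatives used DESeq2 1.42.0, limma 3.58.1 (prior count 2), other scalings, no filter, the replicate number as a block and each library left out.

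The genes and lists were chosen with earlier results of these data known. Peaks named were those of genes in all 3 pathways, of genes with 4 or more peaks, the strongest promoter and intron peak of each role, the 10 highest and 6 lowest log2 differences at 20 CPM or more without overlap, and members of the lists. Peaks of Ace, Agt, Chrm3, Fgf7 and Phka1 and the intron peak of Grk2 were named after their values were seen. Roles were assigned by hand.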

Additional observations from a re-analysis of the deposited data

How the results depend on the processing

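No alternative called a peak of a pathway gene. Over all peaks, the 7 calls became 4 with library sizes alone, 19 with DESeq2, 2 with limma-trend, and 1 with the library totals that the deposited RPKM imply (added once the data had been seen). Leaving out 1 library gave 0 to 10 calls, with 0 without Dyrk1b library 3, 1 without control library 3 and 3 without control library 1 or 2. The median log2 difference of the pathway genes, 0.17, was 0.11 with loess offsets, 0.10 with 1 peak per gene and 0.34 with the RPKM totals, under which the median of all peaks is 0.17 in place of 0.00. It ran from 0.12 to 0.19 when 1 library was left out. The promoter median, 0.16, was 0.35 with the RPKM totals, 0.072 with the authors' class alone and 0.36 at peaks below the median level, and 0.12 to 0.24 when 1 library was left out. The intron median, 0.16, was 0.053 with loess offsets, 0.30 with the RPKM totals and 0.014 with 1 peak per gene. It was 0.24 at peaks below the median level and -0.020 at those above it, and 0.10 to 0.16 when 1 library was left out. The split by level was also chosen after seeing the data, and the cause of these shifts was not tested. With the replicate number as a block, 7 peaks were called, 0 of them at pathway genes, and the medians were 0.15 in all classes, 0.18 at promoters and 0.14 in introns. Same-numbered libraries showed no sign of pairing, since their deviations correlated at -0.0098, -0.0144 and 0.0073. At so few reads per peak these correlations could not exclude a weak pairing, and the labels state none. Of 110 named peaks with a log2 difference of at least 0.5 in size, 0 turned sign under any alternative, while 101 of all 295 named peaks did. The 110 were taken by size in this same comparison, which makes a change of sign unlikely, so that 0 is no support for them. With 21 to 41 reads at the median peak of a library, single peaks carry wide errors.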
